A study of Homo sapiens with 9 samples.

Results

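The genes described here encode the subunits of the proteasome and the factors that assemble, activate or inhibit it. They were taken as the protein-coding entries whose symbol starts with PSM, a letter from A to G and a digit, without read-through entries carrying a hyphen and without PSMC3IP, which is not a proteasome gene. This gave 48 of 58735 genes, of which 19951 are protein-coding. By role they comprise 8 alpha and 7 beta subunits of the 20S core, 3 immunoproteasome subunits, 1 thymoproteasome subunit, 6 ATPases and 11 other subunits of the 19S cap, 3 chaperones of 19S assembly, 4 chaperones of 20S assembly, 4 activators and 1 inhibitor.

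The libraries, 3 in each of 3 groups, hold RNA of MDA-MB-231, a cell line of mesenchymal character grown from a triple-negative breast cancer. Vehicle cells received DMSO, erastin-R cells had survived rising concentrations of erastin, which blocks cystine uptake by system xc-, and RSL3-R cells had survived rising concentrations of RSL3, which inhibits the lipid peroxidase GPX4. Both drugs induce ferroptosis, an iron-dependent death through lipid peroxidation, and the comparison with vehicle cells asks how the survivors differ in expression. All groups derive from 1 line, and the labels do not say whether the libraries of a group came from separate cultures, so the p-values measure only the spread between these libraries.

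Total counts ranged from 15405102 to 17273464 per library, and 16188 genes passed the filter on low counts. VIM, a mesenchymal marker, lay between 1270 and 1580 CPM (counts scaled to library size) in the 9 libraries. The receptors ESR1 and PGR had at most 12 and 2 counts, whereas the receptor ERBB2 had 927 to 1598 (59.8 to 96.9 CPM). The epithelial genes EPCAM and CDH1 had at most 48 and 59 counts, and the keratin KRT18 had 1093 to 3103. The leukocyte markers CD3E, CD68 and PTPRC had at most 4, 7 and 24 counts. Of the endothelial markers, PECAM1 ranged from 20 to 222 counts and VWF from 1 to 6. The fibroblast genes COL1A1, a collagen, and PDGFRB ranged from 111 to 205 and from 96 to 191 counts. Erastin-R replicate 1 was the library of its group closest to the vehicle mean for 25 of the 46 proteasome genes tested, against 15 for replicate 2 and 6 for replicate 3.

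The proteasome degrades proteins tagged with ubiquitin. Rings of alpha subunits gate the barrel of the 20S core, and within its beta rings PSMB6, PSMB7 and PSMB5 carry the caspase-like, trypsin-like and chymotrypsin-like active sites. The 19S cap recognises ubiquitin, unfolds the substrate with its ring of ATPases and feeds it into the core. Interferon induces PSMB9, PSMB10 and PSMB8, which take the places of those catalytic subunits and favour peptides for MHC class I. When proteasome activity falls short, the transcription factor NFE2L1, with a small MAF partner, drives subunit genes through antioxidant response elements in their promoters.

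Stretches of promoters holding the core of that element are shown because they are the sequence through which the subunit genes are known to be induced together, and because NFE2L1 and its partners were measured in the same libraries. RefSeq promoter windows on GRCh38.p14, from 250 bases before to 50 after a start, were matched by symbol for 42 of the 48 genes, some with several starts, giving 51 windows. TGACNNNGC, on either strand, occurred in 15 of the 51 windows (29.4%) and in 13.3% of all 35116 windows of the table. The core is in capitals in the stretches printed here, each read 5′ to 3′ on the strand of its gene and lying before the start.
PSMA4, chr15:78540650-78540678, + strand: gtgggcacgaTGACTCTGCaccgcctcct
PSMB3, chr17:38752627-38752655, + strand: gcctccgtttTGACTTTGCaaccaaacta
PSMC5, chr17:63827654-63827682, + strand: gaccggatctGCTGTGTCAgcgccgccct
PSMD3, chr17:39980760-39980788, + strand: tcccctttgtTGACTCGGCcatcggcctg
PSMD12, chr17:67366724-67366752, - strand: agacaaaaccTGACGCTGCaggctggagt
PSMD5, chr9:120843038-120843066, - strand: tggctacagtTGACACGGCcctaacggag
PSMG1, chr21:39183616-39183644, - strand: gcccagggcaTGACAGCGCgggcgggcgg
PSME1, chr14:24136098-24136126, + strand: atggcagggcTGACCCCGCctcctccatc
PSMB9, chr6:32854034-32854062, + strand: gggcggggctGCCTCGTCActtgtctcgg

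In PSMC5 and PSMB9 the core reads on the opposite strand of the gene. The genes shown include core, cap, assembly and activator genes, and they did not all move alike: PSMB3 rose in erastin-R cells, whereas PSMA4, PSMC5 and PSME1 fell there. Other letters searched were the NF-Y box CCAAT, found in 39.2% of the proteasome windows and 34.6% of all windows, the ETS core CCGGAAG, in 29.4% and 10.3%, and the STAT core TTCNNNGAA, in 15.7% and 7.66%. The STAT core, a motif of interferon-driven factors, occurred in windows of 8 genes: PSMA2, PSMA8, PSMB5, PSMB8, PSMC4, PSMD2, PSMD3 and PSME3. In PSMB5, the constitutive counterpart of PSMB8, it stood 158 and 15 bases before the start. The windows of PSMB9, PSME1 and PSME2 did not hold it, so these letters did not occur in the windows of all interferon-induced genes. In PSMB8, the interferon-induced chymotrypsin-like subunit, it stood 65 bases before the downstream start and is capitalised here.
PSMB8, chr6:32844094-32844122, - strand: aactgtccttTTCTCGGAAaaggcagggg

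These matches describe letters only, and binding was not measured.

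Levels between genes were compared per length, as deposited FPKM (counts scaled to gene length and library size). In vehicle cells the highest were PSMA7 at 136 FPKM ± 8.73 (SD, n = 3), an alpha-ring subunit, PSMD2 at 109 ± 3.21, a large scaffold subunit of the cap, and PSME1 at 101 ± 0.887, a subunit of the 11S activator. Of the 7 constitutive beta subunits, 6 lay between 72.4 and 85.4 FPKM, while PSMB2 stood at 26.6. The 3 immunoproteasome subunits were lower, with PSMB8 at 17.2, PSMB9 at 5.87 and PSMB10 at 3.65 FPKM. PSMA8 and PSMB11 were at or near 0. PSMA8, the alpha subunit of germ cells, had no count in any library, and PSMB11, the thymus subunit, had 0 in all vehicle and erastin-R libraries and 1, 0 and 2 in RSL3-R. A floor of 3 counts corresponds to 0.175 to 0.193 CPM, so both were at or under what these depths resolve, and neither was tested.

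Low values of a few core genes coincided with overlapping annotation. PSMA2 at 0.722 FPKM, PSMA6 at 0.749 and PSMA1 at 9.10 are subunits of the same ring as PSMA7, yet 97.1%, 70.4% and 88.6% of their coding bases are also annotated to a read-through gene on the same strand. The 4 detected alpha genes without overlap ranged from 15.2 to 136 FPKM. Reads in shared exons cannot be assigned to 1 gene, and the read-through genes themselves had 0 to 12 counts. PSMB10 shares 58.3% and PSMD9 58.7% of their coding bases with another gene of the same strand, and NRDE2 lies opposite 47.7% of those of PSMC1. In all, 13 of the 48 genes share coding bases with another gene, 35 do not, and the part of the overlap in the levels was not tested. The deposited gene length equalled the union of all annotated exons for all 48 genes, which lowers FPKM where long alternative exons are rarely used.

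**Figure D1:**
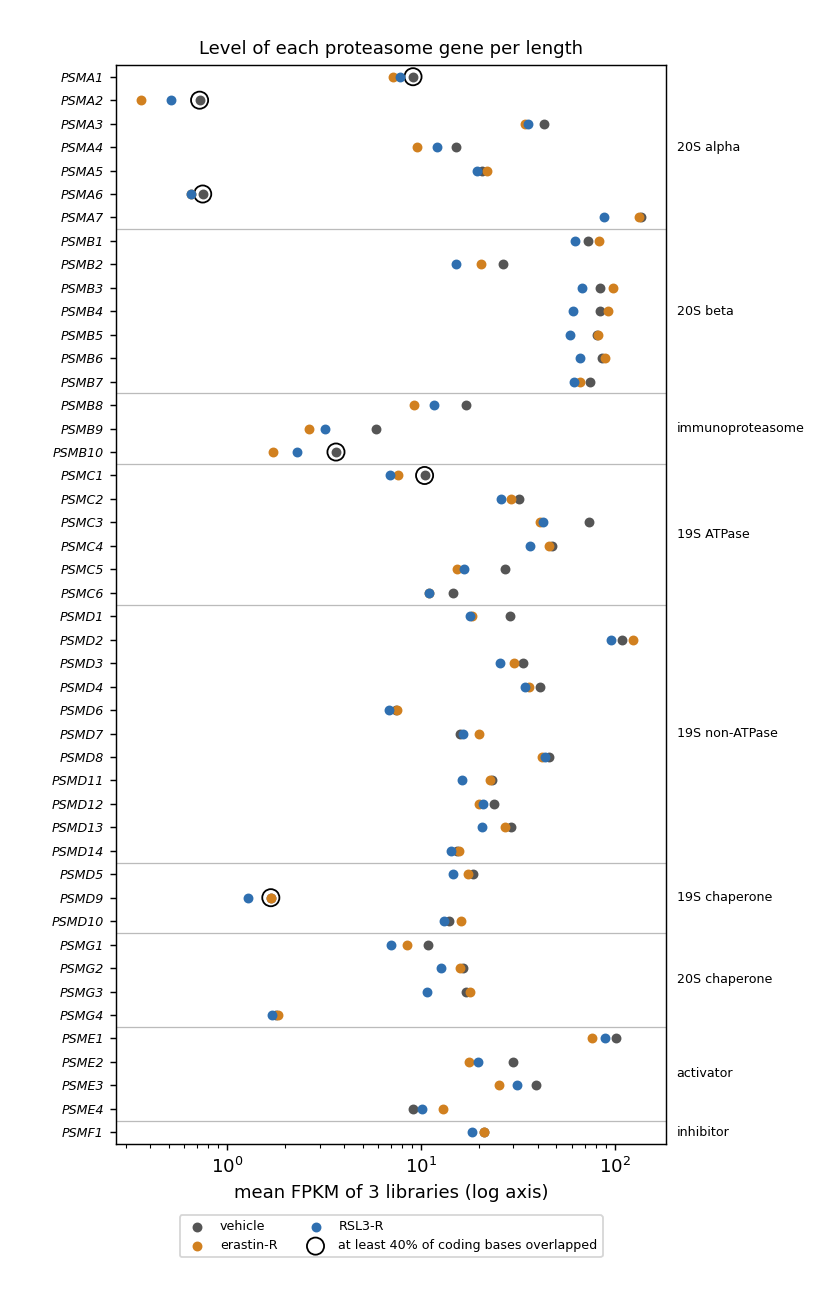
Mean FPKM of the 3 libraries of each group (points, log axis) for the 46 proteasome genes tested, grouped by role, with circles around the vehicle point of genes that share at least 40% of their coding bases with another gene. Most beta subunits lie close together near the top of the scale, and circled PSMA2 and PSMA6 lie under 1 FPKM.

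Survivors of RSL3 expressed most proteasome genes at lower levels than vehicle cells, 22.3% lower at the median. None of the 46 genes tested was higher, 35 were lower and 11 passed in neither direction (edgeR's quasi-likelihood test, adjusted p under 0.05). Among all 16188 genes tested, 23.8% were called higher and 24.9% lower. The median log2 fold change was -0.36 for the proteasome genes and 0.0052 for all genes. At an unadjusted p under 0.05 PSME4 alone was higher, as it was by limma after quantile normalization, while DESeq2 called 0 higher and 34 lower. No proteasome gene passed a 2-fold change as well, a rule met by 10.1% of all genes. In these bulk samples, less RNA per cell and fewer cells expressing a gene cannot be told apart.

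In erastin-R cells, compared with the same vehicle libraries, these genes split. Of the 46, 6 were higher, 20 lower and 20 passed in neither direction, against 27.1% higher and 26.8% lower among all genes. Their median log2 fold change was -0.12, with -0.0042 for all genes. Only PSMB9 and PSMB10 passed a 2-fold change too, both lower, a rule met by 13.4% of all genes. Without erastin-R replicate 1, 10 were higher and 23 lower, and without vehicle replicate 2, 3 were higher and 20 lower.

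**Figure D2:**
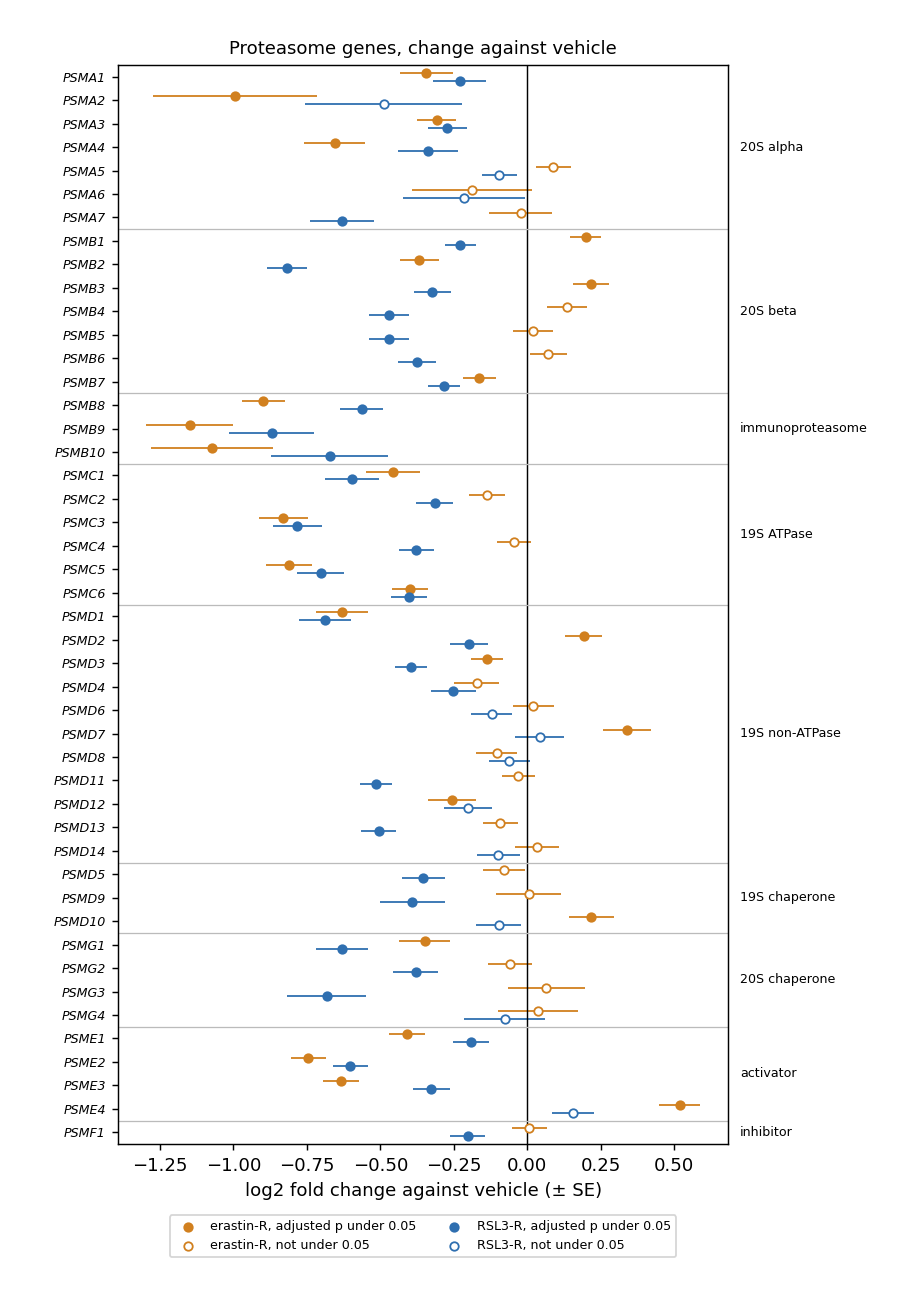
Log2 fold change against vehicle with its standard error (horizontal axis) for the 46 genes tested, in erastin-R (orange) and RSL3-R cells (blue), with filled points where the adjusted p is under 0.05. All 7 constitutive beta subunits lie left of 0 in RSL3-R cells, and in both groups the 3 immunoproteasome subunits lie further left than the catalytic subunits they replace.

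The immunoproteasome subunits fell in both groups of survivors. PSMB9 (ENSG00000240065, chr6:32844136-32859585, + strand, GRCh38), which takes the place of PSMB6, had 18.3, 18.3 and 18.1 CPM in the vehicle libraries, 6.49, 9.54 and 8.63 in erastin-R and 9.22, 8.76 and 11.9 in RSL3-R. Every survivor library lay below every vehicle library. The log2 fold changes were -1.15 ± 0.15 (SE, adjusted p = 1.94e-05) in erastin-R and -0.87 ± 0.14 (adjusted p = 0.00022) in RSL3-R cells.

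PSMB8 (ENSG00000204264, chr6:32840717-32844703, - strand), the chymotrypsin-like subunit and the most expressed of them, read 54.1, 53.0 and 48.9 CPM in vehicle libraries. It fell to 26.5, 29.01 and 28.3 CPM in erastin-R and to 34.3, 34.9 and 36.4 in RSL3-R cells, with no overlap between any groups. Its log2 fold changes were -0.90 ± 0.07 (adjusted p = 3.09e-07) and -0.56 ± 0.07 (adjusted p = 2.54e-05). The antisense gene PSMB8-AS1 covers 20.6% of its exon bases, and without strand information its reads cannot be told from those of PSMB8. PSMB8-AS1 itself had 43 to 60 counts in vehicle, 5 to 17 in erastin-R and 24 to 34 in RSL3-R libraries, against 445 to 908 counts for PSMB8, and its part in the fall was not tested.

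PSMB10 (ENSG00000205220, chr16:67934502-67937087, - strand), the trypsin-like subunit, had the lowest counts of the 3, from 41 to 123 in the 9 libraries. Vehicle libraries had 7.33, 6.30 and 6.85 CPM, erastin-R 2.68, 2.61 and 4.44, and RSL3-R 4.77, 4.60 and 3.51. The survivors again lay below all vehicle libraries, by -1.07 ± 0.21 (adjusted p = 0.000603) and -0.67 ± 0.20 (adjusted p = 0.013) on the log2 scale. The call in RSL3-R cells was lost without vehicle replicate 1 or RSL3-R replicate 3. AC040162.1, on the same strand, shares 58.3% of the coding bases of PSMB10. It had 12, 6 and 26 counts in vehicle, 14, 3 and 4 in erastin-R and 13, 13 and 6 in RSL3-R libraries. The part of this overlap in the fall of PSMB10 was not tested.

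The constitutive catalytic subunits were all lower in RSL3-R cells as well, whereas in erastin-R cells only PSMB7 was. PSMB5, the chymotrypsin-like subunit and target of bortezomib, had 149, 149.9 and 136 CPM in vehicle, 157, 136 and 148 in erastin-R and 100.5, 104 and 109.7 in RSL3-R libraries. Erastin-R and vehicle libraries overlapped (log2 fold change 0.02 ± 0.07, adjusted p = 0.828), and the RSL3-R libraries lay below both (-0.47 ± 0.07, adjusted p = 6.64e-05). PSMB6, the caspase-like subunit, showed the same order, with 129, 122 and 124 CPM in vehicle, 120.3, 136.5 and 137 in erastin-R and 94.9, 97.6 and 96.4 in RSL3-R. It differed by 0.07 ± 0.06 (adjusted p = 0.361) in erastin-R and fell by 0.38 on the log2 scale in RSL3-R cells (adjusted p = 0.000253). PSMB7, the trypsin-like subunit, fell in both, from 136, 132 and 136 CPM to 122, 116 and 123 in erastin-R and 109, 113 and 110.3 in RSL3-R (-0.16, adjusted p = 0.0224, and -0.28, adjusted p = 0.000772). Its erastin-R call was lost in 4 of 13 alternative settings, among them the removal of vehicle replicate 1 or erastin-R replicate 2 (adjusted p up to 0.0907).

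**Figure D3:**
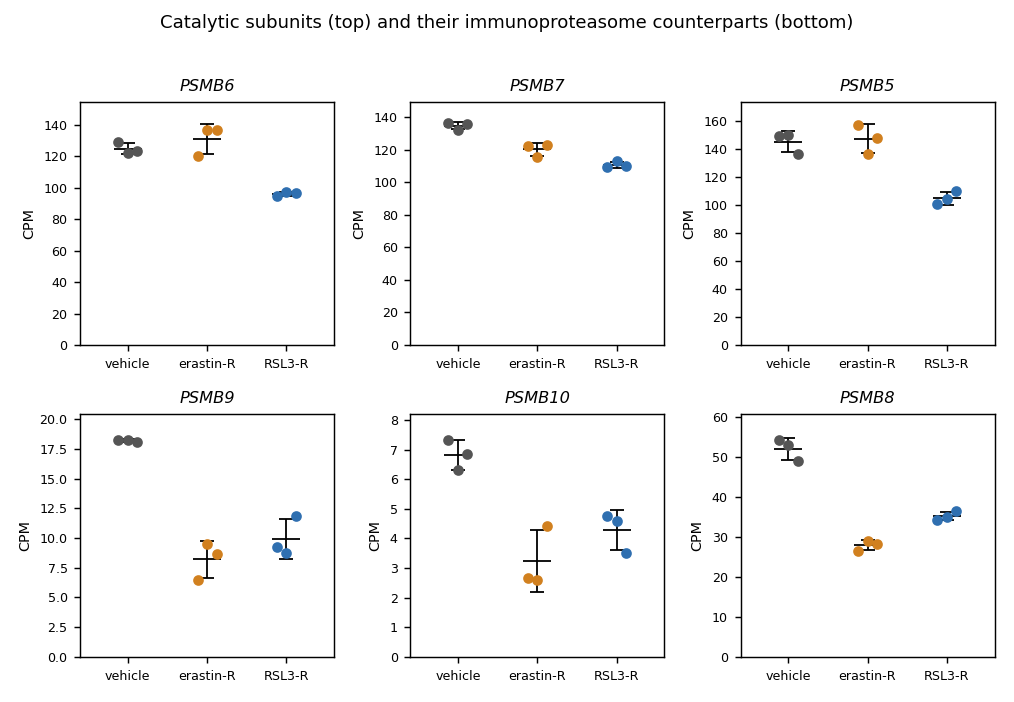
CPM in each library (points), with mean and SD of 3 libraries (black), for PSMB6, PSMB7 and PSMB5 (top) and the immunoproteasome subunits PSMB9, PSMB10 and PSMB8 that replace them (bottom), with axes from 0. The bottom row drops in both survivor groups, whereas PSMB5 and PSMB6 drop in RSL3-R cells and overlap vehicle in erastin-R cells.

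Summed over the 6 catalytic subunits per length, the immunoproteasome share of FPKM was 10.1%, 9.999% and 9.79% in vehicle libraries, 4.90%, 5.67% and 5.59% in erastin-R and 8.49%, 8.23% and 8.59% in RSL3-R. The means were 9.95% ± 0.144 (SD, n = 3), 5.39% ± 0.421 and 8.44% ± 0.189. The groups did not overlap, and the exact two-sided permutation test against vehicle gave p = 0.1 for each, the smallest that 3 against 3 libraries allow. On raw counts the shares were 15.99%, 8.99% and 13.7%. In RSL3-R cells both kinds of subunit were lower, and in erastin-R cells the share fell with the immunoproteasome subunits.

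The other beta subunits moved apart between the survivor groups. In erastin-R cells 2 of the 7 constitutive beta genes were higher and 2 lower, near the shares of all genes (27.1% and 26.8%). In RSL3-R cells 7 of 7 were lower, against 24.9% of all genes. The medians were 0.07 and -0.38 on the log2 scale. PSMB2, a subunit next to the active sites, moved most, from 127, 128 and 135 CPM in vehicle to 110.2, 94.0 and 97.9 in erastin-R and 72.3, 74.0 and 74.9 in RSL3-R libraries. The 3 groups did not overlap, and PSMB2 fell by 0.37 (adjusted p = 0.000385) and by 0.82 (adjusted p = 3.51e-07). PSMB3, a structural subunit, rose from 99.7, 96.8 and 103.6 CPM to 110.0, 120.6 and 118 in erastin-R cells (0.22 ± 0.06, adjusted p = 0.00844) and fell to 77.4, 79.9 and 82.6 in RSL3-R cells (-0.32 ± 0.06, adjusted p = 0.00068). Its rise was not called without vehicle replicate 2 (adjusted p = 0.0516). PSMB1, another structural subunit, went the same ways, from 163, 169.9 and 163 CPM to 187, 192 and 189.6 (0.20, adjusted p = 0.00572) and to 144, 138 and 141 (-0.23, adjusted p = 0.00284).

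In the alpha ring 4 of 7 genes tested were lower in each comparison and none higher, with medians of -0.31 (erastin-R) and -0.27 (RSL3-R). Among all genes 26.8% were lower and 27.1% higher in erastin-R, and 24.9% and 23.8% in RSL3-R. PSMA7, the most expressed, fell in RSL3-R cells from 248, 251 and 222 CPM to 160.1, 152 and 153 (-0.63 ± 0.11, adjusted p = 0.000265). Its erastin-R libraries were at 185, 264 and 261 CPM, with replicate 1 below and the others above all vehicle libraries (-0.02 ± 0.11, adjusted p = 0.876). PSMA5 was the highest of the ring in both comparisons, and neither change passed the test, with 117, 120.1 and 122 CPM in vehicle, 119, 131 and 132 in erastin-R and 114, 113 and 109.6 in RSL3-R. PSMA2 had the lowest fold change of the ring in erastin-R cells, on few reads: 54, 58 and 79 counts in vehicle against 20, 43 and 32 (-0.99 ± 0.28, adjusted p = 0.00809), and its overlapped exons limit that value. PSMA4, without overlap, fell from 105.5, 109 and 107.5 CPM to 83.3, 58.6 and 62.4 in erastin-R (-0.65, adjusted p = 0.00012) and to 80.7, 84.7 and 89.3 in RSL3-R libraries (-0.34, adjusted p = 0.0146). The latter call was lost without RSL3-R replicate 1 (adjusted p = 0.0953), and PSMA1, 1 of the 4 lower there, was not called in 12 of 13 settings.

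Of the 19S cap, the ATPase ring was lower in both groups, with medians of -0.43 and -0.50. In erastin-R cells 4 of 6 genes were lower (26.8% of all genes) and in RSL3-R cells 6 of 6 (24.9%), with none higher. PSMC3 had the lowest values, falling from 169, 175 and 163 CPM to 106.5, 80.7 and 97.3 in erastin-R and 99.4, 100.4 and 94.4 in RSL3-R libraries. The survivor groups overlapped each other and lay far below vehicle (-0.83 ± 0.08, adjusted p = 2.15e-06, and -0.78 ± 0.08, adjusted p = 4.29e-06). PSMC5 behaved alike, with 127, 122 and 122 CPM in vehicle, 78.8, 66.2 and 65.9 in erastin-R and 71.2, 82.1 and 73.9 in RSL3-R (-0.81, adjusted p = 1.49e-06, and -0.70, adjusted p = 6.47e-06). FTSJ3 lies opposite 10.5% of its coding bases, and its counts were lower too, at 1580 to 1775 in vehicle, 1108 to 1436 in erastin-R and 1108 to 1213 in RSL3-R.

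The least changed ATPases were PSMC4 in erastin-R and PSMC2 in RSL3-R cells. PSMC4 had 117, 114 and 113 CPM in vehicle, 107, 111 and 115 in erastin-R (-0.04, adjusted p = 0.548) and 85.4, 87.7 and 91.5 in RSL3-R (-0.38, adjusted p = 0.000117). PSMC2 had 117, 108 and 122 CPM in vehicle, 107, 105 and 102 in erastin-R (-0.14, adjusted p = 0.0791) and 89.5, 94.1 and 94.7 in RSL3-R (-0.32, adjusted p = 0.000903). PSMC1 fell by 0.46 and 0.60 (adjusted p = 0.0008 and 0.000109). NRDE2, opposite most of its exons, went from 556 to 608 counts in vehicle to 380 to 485 and 373 to 444, and its part in that fall was not tested.

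The 11 other cap subunits were mixed. In erastin-R cells 2 were higher and 3 lower (median -0.09). Of all genes 27.1% and 26.8% were, so the count lower lay near that share. In RSL3-R cells 6 were lower and none higher (median -0.20), beside 24.9% and 23.8% of all genes. PSMD1, the scaffold that binds the ATPase ring and ubiquitin receptors, had the lowest value in both, with 144, 152.5 and 154 CPM in vehicle, 114, 88.7 and 87.9 in erastin-R and 95.0, 94.8 and 89.5 in RSL3-R (-0.63, adjusted p = 4.03e-05, and -0.69, adjusted p = 2.14e-05). PSMD7, partner of the deubiquitinase PSMD14, had the highest in both. It rose from 43.8, 41.4 and 46.8 to 57.1, 53.8 and 56.2 CPM in erastin-R cells (0.34 ± 0.08, adjusted p = 0.00292), while its RSL3-R libraries, at 43.2, 42.2 and 50.4 CPM, overlapped vehicle (adjusted p = 0.701). AC009120.2 lies opposite 28.4% of the coding bases of PSMD7 and had 36 to 58 counts in vehicle, 30 to 34 in erastin-R and 54 to 75 in RSL3-R, against 670 to 959 for PSMD7. PSMD2 rose in erastin-R from 621, 592 and 586 CPM to 615, 714 and 725.5 (0.19 ± 0.06, adjusted p = 0.0221) and fell in RSL3-R to 532, 519 and 519.7 (-0.20 ± 0.06, adjusted p = 0.0216). For PSMD2 the erastin-R and vehicle libraries overlapped through erastin-R replicate 1, and both calls were lost when single libraries were left out (adjusted p up to 0.0935 and 0.143). PSMD14, which removes ubiquitin chains, was not past the test in either comparison (0.03, adjusted p = 0.726, and -0.10, adjusted p = 0.289).

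Assembly chaperones fell mainly in RSL3-R cells. Of the 4 factors of 20S assembly, 1 was lower in erastin-R and 3 were lower in RSL3-R cells (medians -0.011 and -0.50). The shares of all genes called lower were 26.8% and 24.9%. PSMG1, which pairs with PSMG2 to build the alpha ring, had 28.2, 27.5 and 27.3 CPM in vehicle, 23.3, 21.95 and 19.9 in erastin-R and 18.1, 17.03 and 18.5 in RSL3-R, without overlap (-0.35, adjusted p = 0.00402, and -0.63, adjusted p = 5.05e-05). PSMG2 had 52.6, 57.4 and 58.1 CPM in vehicle, 49.4, 58.1 and 53.9 in erastin-R (-0.06, adjusted p = 0.536) and 44.6, 42.2 and 42.5 in RSL3-R (-0.38, adjusted p = 0.00101). PSMG3, partner of PSMG4, had 35.0, 36.9 and 29.7 CPM in vehicle, 27.9, 36.3 and 42.1 in erastin-R (0.07, adjusted p = 0.697) and 22.7, 21.1 and 19.5 in RSL3-R (-0.68 ± 0.13, adjusted p = 0.000834). PSMG4 passed in neither, at 19.1, 19.9 and 17.6 CPM in vehicle, 14.7, 21.6 and 21.9 in erastin-R and 19.2, 18.2 and 16.4 in RSL3-R.

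Among the 19S chaperones, PSMD5 had 77.7, 84.5 and 86.9 CPM in vehicle, 85.0, 78.6 and 72.2 in erastin-R (-0.08, adjusted p = 0.375) and 64.4, 65.0 and 65.6 in RSL3-R (-0.35, adjusted p = 0.00113). PSMD9 had 15.9, 14.1 and 14.8 CPM in vehicle, 16.1, 14.5 and 14.3 in erastin-R (0.0042, adjusted p = 0.977) and 12.1, 11.9 and 10.2 in RSL3-R (-0.39, adjusted p = 0.00979). PSMD10, also called gankyrin, rose in erastin-R from 33.4, 33.4 and 37.3 to 38.4, 40.4 and 42.3 CPM (0.22, adjusted p = 0.0274) and had 33.3, 32.6 and 31.4 in RSL3-R (-0.10, adjusted p = 0.325). The PSMD10 call was lost in 8 of 13 alternative settings, DESeq2 included, so it stands near the threshold, and the PSMD9 call in RSL3-R was lost without RSL3-R replicate 3 (adjusted p = 0.0862).

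The activators open the gate of the core without ubiquitin, and here they divided by gene. PSME1 and PSME2, the interferon-inducible subunits of the 11S ring, fell in both comparisons. PSME2 had 105, 106 and 111.5 CPM in vehicle, 65.2, 64.4 and 62.9 in erastin-R and 68.7, 70.4 and 73.5 in RSL3-R (-0.75 ± 0.06, adjusted p = 2.48e-07, and -0.60 ± 0.06, adjusted p = 1.97e-06). PSME1 had 184, 182 and 180.2 CPM, then 128, 143.5 and 140.2, and 164, 152 and 163 (-0.41, adjusted p = 7.3e-05, and -0.19, adjusted p = 0.0181). The PSME1 call in RSL3-R was lost in 6 of 13 settings: quantile normalization and the removal of vehicle replicate 1 or 2 or of any RSL3-R library (adjusted p up to 0.0864). PSME3, a nuclear homologue, fell from 200.3, 198 and 215.5 CPM to 138, 133 and 124 in erastin-R and 169, 157.5 and 163 in RSL3-R (-0.63, adjusted p = 1.5e-06, and -0.33, adjusted p = 0.000604).

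PSME4, the large monomeric activator also called PA200, went the other way. It rose from 88.3, 96.6 and 97.6 CPM to 145.5, 127 and 132 in erastin-R libraries (0.52 ± 0.07, adjusted p = 2.85e-05), the largest rise of the 46 genes in that comparison. In RSL3-R it stood at 108, 99.1 and 107 CPM, above all vehicle libraries yet short of the threshold (0.16 ± 0.07, adjusted p = 0.0822). PSMF1, an inhibitor of the core, had 114, 111.4 and 113 CPM in vehicle, 109, 113 and 118 in erastin-R (0.0072, adjusted p = 0.93) and 97.6, 103 and 93.0 in RSL3-R (-0.20, adjusted p = 0.0133), a call lost without RSL3-R replicate 1 or 3 and with quantile normalization (adjusted p up to 0.166).

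**Figure D4:**
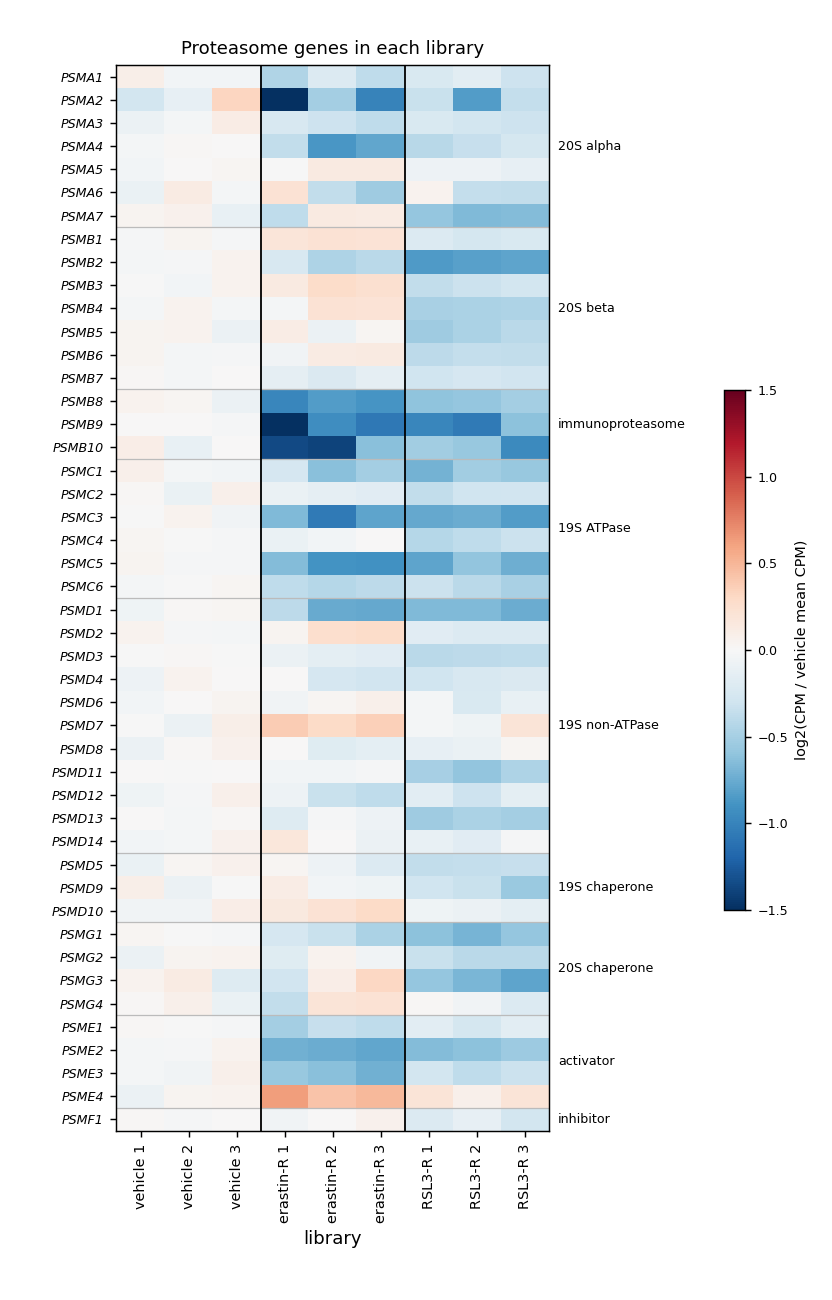
Log2 ratio of CPM in each of the 9 libraries (columns) to the mean of the vehicle libraries, for the 46 genes tested (rows, grouped by role), blue below and red above that mean. The RSL3-R columns are mostly blue, the erastin-R columns hold both colours, and erastin-R replicate 1 is paler than replicates 2 and 3 in rows such as PSMA4, PSMC5 and PSMD1 but darker for PSMA2 and PSMB9.

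Summed FPKM per role weights each gene by its level. Relative to vehicle, RSL3-R cells had 0.729 times the alpha, 0.771 times the beta, 0.683 times the ATPase and 0.838 times the non-ATPase sum. In erastin-R cells the same sums were 0.922, 1.04, 0.732 and 0.977 times vehicle. PSMA7 makes up 136 of the 225 FPKM of the vehicle alpha sum, and the erastin-R alpha sum was 180 FPKM in replicate 1 against 223 and 220.1 in the others, with 226, 230.2 and 219 in vehicle. The ATPase sum was 207, 204 and 204 FPKM in vehicle libraries, 157, 142 and 152 in erastin-R and 138, 143 and 139.9 in RSL3-R. The beta sum was 510.2, 509.8 and 506 FPKM, then 514, 534 and 544.5, and 386, 391.5 and 399. These sums were not tested.

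Compared directly, RSL3-R cells had lower levels than erastin-R cells for 23 proteasome genes and higher levels for 4, with 19 passing in neither direction. Among all genes 26.9% were called lower and 22.3% higher, and the medians were -0.16 for the proteasome genes and -0.024 for all genes. None of the 46 also passed a 2-fold difference, which 10.3% of all genes did. The genes higher in RSL3-R were PSMA4, PSMB8, PSME1 and PSME3, of which PSMA4 was not called in 4 of 13 settings, each leaving out 1 library. After quantile normalization with limma 6 were higher and 18 lower, and without erastin-R replicate 1, 7 were higher and 25 lower.

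By role, 6 of 7 beta subunits were lower in RSL3-R than in erastin-R cells, beside 26.9% of all genes. So were 3 of 3 chaperones of the 19S and 3 of 4 of the 20S. PSMB4 differed by -0.60 ± 0.07 (adjusted p = 7.96e-06), PSMB5 by -0.49 ± 0.07 (adjusted p = 5.31e-05), PSMA7 by -0.61 ± 0.11 (adjusted p = 0.000377) and PSMG3 by -0.75 ± 0.13 (adjusted p = 0.000419). PSMB8 was higher by 0.33 ± 0.08 (adjusted p = 0.00229), and PSMB9 and PSMB10 were not past the test (0.28, adjusted p = 0.15, and 0.40, adjusted p = 0.143). Of the 6 ATPases 2 were lower, PSMC4 and PSMC2, the latter not called in 8 of 13 settings, and the steeply reduced PSMC3 and PSMC5 differed by 0.05 (adjusted p = 0.668) and 0.11 (adjusted p = 0.286).

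The regulators of proteasome genes were measured in the same libraries, as part of 42 pathway genes outside the PSM names. NFE2L1 had 323, 328 and 299 CPM in vehicle, 309, 291 and 306 in erastin-R and 562, 597 and 576 in RSL3-R libraries. It rose in RSL3-R cells (0.87 ± 0.06, adjusted p = 3.57e-08) and overlapped vehicle in erastin-R cells (-0.07 ± 0.06, adjusted p = 0.338). DDI2, the protease that releases active NFE2L1 from the membrane, also stood apart in RSL3-R, with 33.1, 34.4 and 40.5 CPM in vehicle, 39.2, 39.1 and 39.0 in erastin-R and 55.1, 52.3 and 56.0 in RSL3-R (0.60, adjusted p = 3.63e-05). NFE2L2, the related factor called NRF2, rose in RSL3-R (0.53, adjusted p = 0.00247) and not past the test in erastin-R (0.17, adjusted p = 0.239). NGLY1, listed with these regulators, went otherwise. It rose in erastin-R (0.35, adjusted p = 0.000367) and was unchanged in RSL3-R (-0.00055, adjusted p = 0.995).

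The small MAF partners rose in both groups. MAFF had 49.96, 48.4 and 46.6 CPM in vehicle, 114, 149 and 153 in erastin-R and 88.5, 92.4 and 88.3 in RSL3-R libraries (1.52 ± 0.10, adjusted p = 2.44e-08, and 0.89 ± 0.10, adjusted p = 3.85e-06). MAFK rose by 1.04 and 0.34 (adjusted p = 1.56e-05 and 0.0496) and MAFG by 0.69 and 0.39 (adjusted p = 0.0001 and 0.00783). Between the survivor groups MAFF differed by -0.63 (RSL3-R minus erastin-R, adjusted p = 7.92e-05), MAFK by -0.71 (adjusted p = 0.000489) and MAFG by -0.30 (adjusted p = 0.032). The 15 genes whose windows hold the antioxidant response element core counted 2 higher and 9 lower in erastin-R and 13 lower in RSL3-R cells. The 25 other matched genes tested counted 3 higher and 10 lower, and 16 lower. Among all genes 27.1% were higher and 26.8% lower in erastin-R, and 24.9% lower in RSL3-R. Protein of the regulators was not measured, and a link between their RNA and these counts was not tested.

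**Figure D5:**
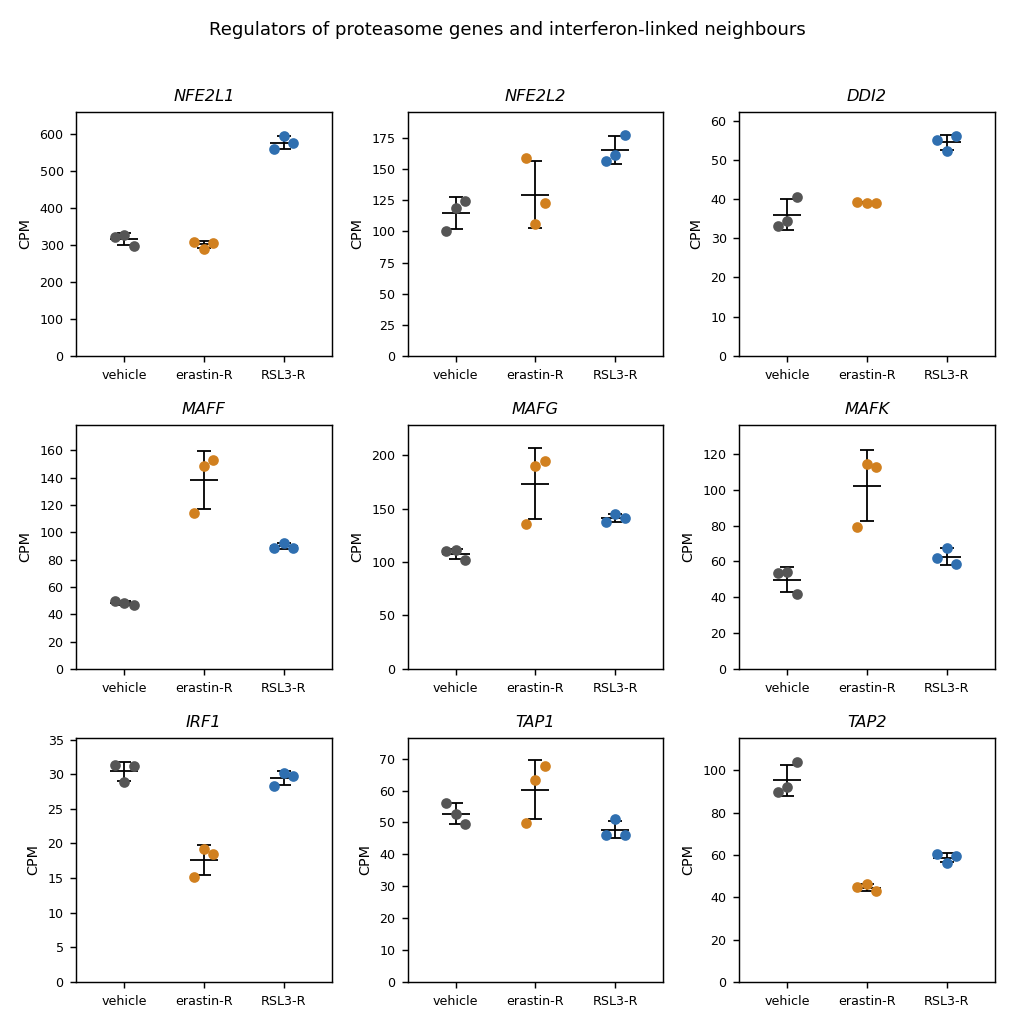
CPM in each library (points), with mean and SD of 3 libraries (black), for the factors NFE2L1 and NFE2L2, the protease DDI2, the small MAF genes and the interferon-linked genes IRF1, TAP1 and TAP2, with axes from 0. NFE2L1 and DDI2 stand apart in RSL3-R cells, the MAF genes have their highest mean in erastin-R cells, with MAFG overlapping RSL3-R, and TAP2 drops in both while TAP1 overlaps vehicle.

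Partners of the proteasome outside the PSM names moved both ways. Of 12 such genes 3 were higher and 4 lower in erastin-R cells, where 27.1% and 26.8% of all genes were, and 2 higher and 5 lower in RSL3-R cells, where 23.8% and 24.9% were. POMP, the chaperone that completes the core, fell by 0.25 and 0.29 (adjusted p = 0.00641 and 0.00293), the ubiquitin receptor ADRM1 by 0.26 and 0.45 (adjusted p = 0.00658 and 0.000126), and the deubiquitinase USP14 by 0.22 and 0.38 (adjusted p = 0.0101 and 0.00027). AKIRIN2, which carries proteasomes into the nucleus, rose in erastin-R (0.38, adjusted p = 0.00499), and its RSL3-R value was -0.02 (adjusted p = 0.888). ZFAND2A, a stress-induced proteasome partner, rose by 0.43 and 0.26 (adjusted p = 0.00104 and 0.0271). PAAF1, an ATPase-binding assembly factor, rose in erastin-R and did not pass in RSL3-R (0.26, adjusted p = 0.0422, and -0.09, adjusted p = 0.493), and ZFAND5 rose in RSL3-R (0.39, adjusted p = 0.000111, with 0.06, adjusted p = 0.378, in erastin-R). SEM1, a small cap subunit, fell by 0.50 in each (adjusted p = 0.0253 and 0.0295), and UBE3C fell in RSL3-R (-0.28, adjusted p = 0.00166). Among 10 shuttles and unfolding factors 4 were higher and 0 lower in erastin-R and 2 higher and 5 lower in RSL3-R cells. VCP, the unfoldase that hands substrates over, had 513, 492 and 494 CPM in vehicle, 441, 534.5 and 509 in erastin-R (-0.014, adjusted p = 0.874) and 374, 386 and 381 in RSL3-R (-0.39, adjusted p = 0.000258). Its cofactors NPLOC4 and UFD1 fell with it in RSL3-R (-0.32, adjusted p = 0.00111, and -0.41, adjusted p = 0.0004).

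Of 6 ubiquitin and activation genes 2 were higher and 3 lower in each comparison with vehicle. The shares of all genes were 27.1% and 26.8% in erastin-R, and 23.8% and 24.9% in RSL3-R. UBB, a polyubiquitin gene, fell by 0.60 and 0.36 (adjusted p = 7.63e-07 and 0.000105). RPS27A, which encodes ubiquitin fused to a ribosomal protein, fell by 0.29 and 0.34 (adjusted p = 0.00161 and 0.000653).

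The genes that share interferon control or a locus with the immunoproteasome did not move as 1 block. TAP2, a peptide transporter subunit encoded beside PSMB8, had 89.6, 92.2 and 103.7 CPM in vehicle, 44.8, 46.1 and 42.7 in erastin-R and 60.2, 56.3 and 59.7 in RSL3-R (-1.09 ± 0.07, adjusted p = 4.25e-08, and -0.70 ± 0.07, adjusted p = 2.72e-06). TAP1, its partner, starts 488 bases from PSMB9 on the opposite strand in the RefSeq windows. TAP1 was not past the test in either, at 56.2, 52.7 and 49.4 CPM in vehicle, 49.9, 63.2 and 67.8 in erastin-R (0.19, adjusted p = 0.122) and 46.2, 51.0 and 46.2 in RSL3-R (-0.14, adjusted p = 0.266). IRF1, an interferon-induced activator of these genes, fell in erastin-R cells (-0.79 ± 0.10, adjusted p = 1.23e-05) and had -0.05 in RSL3-R (adjusted p = 0.697). NLRC5, the class I transactivator, rose in erastin-R (0.49, adjusted p = 0.000672) and had -0.04 in RSL3-R (adjusted p = 0.735). TAPBP fell in erastin-R (-0.24, adjusted p = 0.00764) and rose in RSL3-R (0.38, adjusted p = 0.000282). B2M rose in RSL3-R (0.33, adjusted p = 0.000781) and was not past the test in erastin-R (-0.16, adjusted p = 0.0511). ERAP1 changed most of this list, by -1.19 in erastin-R (adjusted p = 7.18e-09), with -0.21 in RSL3-R (adjusted p = 0.0131). Of the 8 genes of this list 1 was higher and 4 lower in erastin-R, beside 27.1% and 26.8% of all genes. In RSL3-R cells 2 were higher and 3 lower, beside 23.8% and 24.9%.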

How the data were processed

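MDA-MB-231 cells were sequenced as poly(A) RNA in 9 libraries, with groups and replicate numbers taken from the labels. Per library the authors deposited a raw count per gene, from HISAT2 2.0.5 and featureCounts 1.5.0-p3 by the submitters' processing notes, using uniquely mapped reads in exonic regions by the methods. Whether strand was used is not given in the sources used here. FPKM, deposited beside each count and called RPKM in the methods, served to compare levels between genes. Gene coordinates equal those of GENCODE 29 (GRCh38) for all 58735 genes.

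Counts were normalized by TMM and tested with edgeR 4.0.16 in R 4.3.3 (filterByExpr, quasi-likelihood test, 1 model of 9 libraries, no covariate). Benjamini-Hochberg adjustment ran over 16188 genes, with calls at an adjusted p under 0.05. A second rule added an absolute log2 fold change of 1, as in the study's legend. The legend pairs it with an adjusted p under 0.05. The methods pair a fold change above 2 with a P-value under 0.05 from Cufflinks, without naming an adjustment. The common dispersion was 0.00732 (coefficient of variation 8.56%), total counts were 15405102 to 17273464, and intervals and floors cover counting error only. The fit was tested on simulated data. CPM are TMM-scaled. Standard errors come from the log2 fold change and F, so they include the spread between libraries.

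Alternatives were DESeq2 1.42.0, limma 3.58.1 after quantile normalization, library totals, no low-count filter, 2-group models, a replicate block, GC and length correction, libraries left out, and the 2-fold and unadjusted p rules. Pandas 2.3.3, scipy 1.17.1 and matplotlib 3.10.9 in Python 3.11.15 made the summaries and figures. The genes, lists, rules and alternatives were chosen with earlier results of these data known. Among proteasome genes, values in every library are given for the immunoproteasome and the catalytic subunits they replace, the highest and lowest fold change in each role, genes past the 2-fold rule, assembly factors, activators and the inhibitor, and genes with 3 counts or fewer in every library. PSMA4, PSMB1, PSMC5 and PSMD2, and the pathway genes with values, were chosen after their values were seen. A few pathway genes counted in their lists are not reported here by name.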

Additional observations from a re-analysis of the deposited data

Results flagged for a closer look

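PSMB1, PSMB3 and PSMD2 were above vehicle in erastin-R and below vehicle in RSL3-R cells, and the direct comparison of the survivor groups passed the test for each. The difference of RSL3-R minus erastin-R cells was -0.43 on the log2 scale for PSMB1 (adjusted p = 2.02e-05), from 0.20 against vehicle in erastin-R and -0.23 in RSL3-R. For PSMB3, a structural subunit of the beta ring like PSMB1, it was -0.54 (adjusted p = 9.93e-06), from 0.22 and -0.32. For PSMD2, the scaffold of the cap, it was -0.39 (adjusted p = 0.000229), from 0.19 and -0.20. The rise of PSMB3 in erastin-R cells was not called without vehicle replicate 2. That of PSMD2 was not called in 5 of 13 alternative settings, including the removal of vehicle replicate 2 or 3 or of erastin-R replicate 2 or 3, and its fall in RSL3-R cells in 4. Groups of 3 libraries were not searched for single outlying libraries.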

How the results depend on the processing

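Both larger counts, 20 genes lower in erastin-R and 35 lower in RSL3-R cells, stayed within 1.5 times of these values with DESeq2 (20 and 34), quantile normalization (22 and 32), library totals (19 and 34), no filter (18 and 35), 2-group models (18 and 36), GC and length correction (20 and 35) and unadjusted p (22 and 36). A minimum fold change of 2 left 0 higher and 2 lower in erastin-R, 0 lower in RSL3-R, and 0 higher and 0 lower between the survivor groups. Genes higher in RSL3-R rose from 0 to 1 (PSME4) with quantile normalization, library totals, 2-group models and unadjusted p. Leaving out 1 library gave 3 to 10 higher and 17 to 23 lower in erastin-R, 0 to 0 higher and 28 to 34 lower in RSL3-R, and 3 to 7 higher and 18 to 25 lower between the survivor groups. Erastin-R replicate 1 set the upper ends of 10 and 7 higher, and vehicle replicate 2 the lower end of 3. Without erastin-R replicate 1, PSMA7 turned from -0.02 to 0.13 (adjusted p = 0.0318) in erastin-R against vehicle, with -0.108 as the lowest value when another library was left out, and the cause was not tested. A list of the 33 genes tested whose coding bases overlap no other gene was chosen after seeing the data. It gave 5 higher and 13 lower in erastin-R and 26 lower in RSL3-R. These counts are out of 33 genes, against 6, 20 and 35 out of 46 in the main setting. With the replicate block, counts were 6 higher and 19 lower, 0 and 34, and 4 and 22. Same-numbered libraries did not deviate together (correlations -0.0904 to 0.0518 over 9 pairs). These correlations cannot show whether such libraries were cultured or prepared together. In quantile normalization 25.0% of the calls between survivor groups were higher, against 14.8%.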
